A study of Caenorhabditis elegans with 6 samples.

Results

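The genes examined here act in the oocyte and in the eggshell of *C. elegans*. They are 10 genes chosen by name, *rme-2*, *oma-1*, *oma-2*, *puf-5*, *egg-1*, *egg-2*, *cbd-1*, *cpg-1*, *cpg-2* and *perm-2*, out of 20362 genes in the count table, and all 10 passed the filter on low counts that left 13736 genes to test. RNA of whole nematodes was sequenced from 3 libraries of *grh-1* OEx, an integrated line that carries *hsp-16.2p::grh-1::gfp*, and from 3 libraries of wild-type N2 (Bristol) (WT), which carries no construct. Synchronized nematodes of both groups hatched from eggs laid over 4 to 9 h, became young adults within 64 h at 20 °C on *E. coli* OP50 and were kept for 48 h more before collection, and neither received a heat shock. The *hsp-16.2* promoter is inducible by heat, the *grh-1* OEx libraries all come from a single line made by bombardment of an *unc-119*-deficient strain and backcrossed to N2, and whole adults can hold embryos beside their oocytes, so that every value is a sum over tissues.

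In the hermaphrodite gonad, oocytes take up yolk that is made in the intestine, store mRNAs under the control of RNA-binding proteins, and load the material from which the eggshell is built at fertilization. The shell forms in layers, with an outer vitelline layer, a chitin layer and an inner layer rich in chondroitin proteoglycans, and its completion closes a permeability barrier around the embryo. Yolk receptor, RNA-binding and shell genes are therefore commonly used as markers of late oocytes.

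Library totals ran from 14409044 to 25535026 counts. The construct's own gene, *grh-1*, stood, in the order of replicates 1 to 3 that is kept throughout, at 7.65, 9.69 and 6.52 CPM (counts relative to library size, scaled by the TMM factors of edgeR) in *grh-1* OEx, against 5.0, 5.63 and 6.17 CPM in WT (log2 fold change 0.51 ± 0.21 SE, with an adjusted p of 0.709 by the quasi-likelihood test of edgeR). The first principal component, with 51.9% of the variance, set WT replicate 3 apart. The 46 sperm markers found in the table summed to 738 CPM in that library, against 46.2, 114 and 56.4 CPM in *grh-1* OEx and 28.0 and 84.6 CPM in WT replicates 1 and 2. The values of the 10 genes and the list medians that move without that library are given below, and the part of the sperm markers in them was not tested.

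The oocyte and eggshell genes were abundant in both strains, and no difference between *grh-1* OEx and WT passed the test across all genes. None of the 10 passed an adjusted p of 0.05 in edgeR, where 0.444% of all tested genes did, and none passed in DESeq2 or limma-voom, where 1.09% and 0.444% did. Nor did any pass with RLE or upper-quartile scaling, without a filter, with a floor of 10 counts in each library, with a replicate block or with library totals, where 0.502%, 0.488%, 0.3%, 0.601%, 0.379% and 0.495% of genes did. With a library left out none passed either, beside 0.0928%, 0.086% and 0.267% of genes without *grh-1* OEx replicate 1, 2 or 3 and 1.71%, 0.192% and 0.972% without WT replicate 1, 2 or 3. At an unadjusted p under 0.05, *perm-2* was the only member, lower in *grh-1* OEx, and 6.62% of all tested genes reached that level in either direction. The median log2 fold change of the 10 genes was -0.0083, beside -0.010 over all tested genes. The 10 genes took 1.29%, 1.36% and 1.28% of all counts in *grh-1* OEx and 1.18%, 1.15% and 1.54% in WT. The *grh-1* OEx shares thus lay above WT replicates 1 and 2 and below WT replicate 3, which alone sets the upper end of the WT range. In whole nematodes, fewer oocytes and less of an mRNA in each oocyte cannot be told apart.

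**Figure D1:**
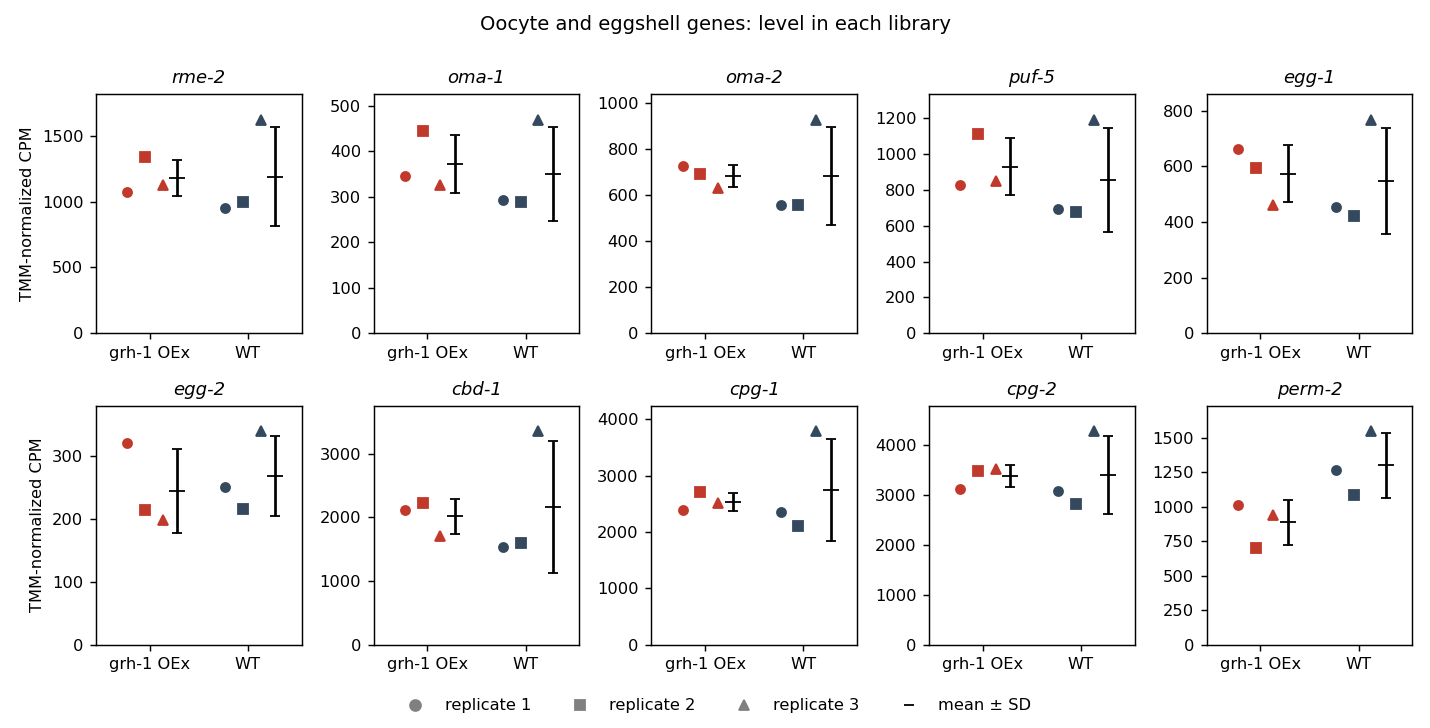
TMM-normalized CPM of each of the 10 genes in the 3 *grh-1* OEx libraries (red) and the 3 WT libraries (dark), with the mean and SD of each group beside the points. WT replicate 3 is the highest library for all 10 genes, and *perm-2* is the only gene whose groups do not overlap.

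*rme-2* encodes the yolk receptor, a member of the LDL receptor family on the oocyte surface (WBGene00004374, chromosome IV of WBcel235 from 5469995 to 5473175, plus strand, 7 exons). It was counted at 1075, 1338 and 1126 CPM in *grh-1* OEx, against 954, 994 and 1620 CPM in WT. All *grh-1* OEx libraries lay between the lower pair of WT libraries and WT replicate 3. Its log2 ratio of *grh-1* OEx to WT was -0.012 ± 0.22 (SE; edgeR adjusted p = 1.00), with a 95% interval from -0.51 to 0.49. With all libraries, a change of more than 1.40-fold up or below 0.702 of the WT level was therefore outside the interval. Without WT replicate 3 the log2 ratio was 0.27, with a 95% interval from -0.052 to 0.60, which reaches higher.

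The ligands of the receptor are the vitellogenins, which are counted mostly from the intestine. *vit-3* stood at 1135, 1254 and 1077 CPM in *grh-1* OEx, against 1918, 2467 and 4027 CPM in WT, so that its groups did not overlap. At a log2 fold change of -1.28 ± 0.26 (SE), edgeR gave it an adjusted p of 0.0831. It passed in DESeq2 (adjusted p = 3.69e-06) and without WT replicate 3 (log2 fold change -0.93, edgeR adjusted p = 0.00375), where 2 *vit* genes passed, 1 in each direction. The other was *vit-6*, the *vit* gene with the most counts in every library. It stood higher, at 27170, 32360 and 22800 CPM in *grh-1* OEx, against 12990, 16270 and 29430 CPM in WT, with overlap. Its log2 fold change was 0.49, and 0.90 without WT replicate 3 (edgeR adjusted p = 0.00937). Of the 6 tested *vit* genes none passed in edgeR with all libraries, 3 were lower at an unadjusted p under 0.05 and 1 had a positive fold change, with a median log2 fold change of -0.66. Without WT replicate 3 that median was -0.22, and *vit-1* and *vit-4* were at -0.34 and -0.27, against -0.77 and -0.70 with all libraries. Some of these genes are near-identical to each other, so that the values of single copies among those are uncertain. Among 10 genes of yolk endocytosis and receptor recycling none passed in either direction (median -0.072, from -0.20 to 0.10), and the median was 0.10 without WT replicate 3. *rab-5*, the small GTPase of early endosomes, had the lowest p of these, at 184, 151.6 and 129 CPM in *grh-1* OEx and 186, 141 and 207 CPM in WT.

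*oma-1* and *oma-2* encode related zinc finger proteins that bind RNA and are redundantly required for oocyte maturation. *oma-1* (WBGene00003864, chromosome IV from 8888976 to 8890987, plus strand, 6 exons) was counted at 346, 444 and 325 CPM in *grh-1* OEx, against 292, 289 and 469 CPM in WT. *oma-2* (WBGene00003865, chromosome V from 8029439 to 8031214, plus strand, 6 exons) was counted at 726, 690 and 631 CPM in *grh-1* OEx, against 558, 558 and 926 CPM in WT. For both genes every *grh-1* OEx library stood above WT replicates 1 and 2 and below WT replicate 3. The log2 fold change was 0.087 for *oma-1* (95% interval -0.41 to 0.58) and 0.0036 for *oma-2* (95% interval -0.48 to 0.49), with an adjusted p of 1.00 for each in edgeR.

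*oma-1* starts 114999 bases beyond the start of the last gene of a stretch of chromosome IV, delimited with earlier results of these data known. Among its 124 tested genes, that stretch held 15 of the 20 genes that passed as higher in *grh-1* OEx. None of the 6 genes next to *oma-1* passed, among them *C09G9.5* at a log2 fold change of -0.32 ± 0.39 (SE) and *spr-2* at 0.0057 ± 0.18 (SE), both with an adjusted p of 1.00 in edgeR.

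*puf-5* encodes a Pumilio-family protein that represses mRNAs in growing oocytes (WBGene00004241, chromosome II from 8575541 to 8577722, plus strand, 5 exons). It was counted at 826, 1111 and 851 CPM in *grh-1* OEx, against 694, 676 and 1189 CPM in WT. As for the *oma* genes, the *grh-1* OEx values lay between the lower pair of WT libraries and WT replicate 3. Its log2 fold change of 0.12 ± 0.24 (SE; edgeR adjusted p = 1.00) was the highest among the 10 genes, with a 95% interval from -0.42 to 0.66. Among 20 other RNA regulators of oocytes and embryos, such as its relatives *puf-3*, *puf-6*, *puf-7* and *puf-11*, none passed in either direction in edgeR and none had an unadjusted p under 0.05. Their median log2 fold change was -0.094, with a range from -0.29 for *car-1*, an RNA granule gene, to 0.098. Without WT replicate 3 the median was 0.12, 16 of the 20 were above 0 against 5 with all libraries, and *car-1* was at -0.011.

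*egg-1* and *egg-2* encode related membrane proteins with LDL receptor repeats that oocytes need to be fertilized. *egg-1* (WBGene00015083, chromosome III from 5728180 to 5730394, plus strand, 5 exons) was counted at 663, 594 and 461 CPM in *grh-1* OEx, against 453, 420 and 766 CPM in WT. *egg-2* (WBGene00019811, chromosome III from 7058518 to 7060597, minus strand, 5 exons) was counted at 321, 215 and 198 CPM in *grh-1* OEx, against 251, 216 and 340 CPM in WT. *egg-2* differed from the genes above in that only *grh-1* OEx replicate 1 exceeded WT replicates 1 and 2. The log2 fold change was 0.069 for *egg-1* (95% interval -0.49 to 0.62) and -0.14 for *egg-2* (95% interval -0.65 to 0.37), each with an adjusted p of 1.00 in edgeR. *egg-1* shares 42 bases with *B0244.9* on the other strand, which stood between 0 and 3.02 CPM, and the library kit does not mark strand.

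*cbd-1* encodes a chitin-binding protein of the vitelline layer (WBGene00010351, chromosome IV from 11372991 to 11377600, plus strand, 10 exons). It was counted at 2119, 2229 and 1702 CPM in *grh-1* OEx, against 1536, 1599 and 3354 CPM in WT. WT replicate 3 stood 1.83 times above the mean of the other 5 libraries, the largest such ratio among the 10 genes. This left *cbd-1* with the widest error, a log2 fold change of -0.10 ± 0.29 (SE) and a 95% interval from -0.75 to 0.55 (adjusted p = 1.00 in edgeR).

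*cpg-1* and *cpg-2* encode chondroitin proteoglycans of the inner shell, and both proteins bind chitin. *cpg-1* (WBGene00000465, chromosome III from 4489359 to 4491396, plus strand, 4 exons) was counted at 2396, 2704 and 2507 CPM in *grh-1* OEx, against 2349, 2110 and 3790 CPM in WT. *cpg-2* (WBGene00015102, chromosome III from 7102086 to 7103990, minus strand, 5 exons) was counted at 3131, 3492 and 3532 CPM in *grh-1* OEx, against 3084, 2819 and 4286 CPM in WT. *cpg-2* held the most counts of the 10 genes and varied least over the 6 libraries, with a coefficient of variation of 15.2%. The log2 fold change was -0.12 for *cpg-1* (95% interval -0.61 to 0.38) and -0.0048 for *cpg-2* (95% interval -0.42 to 0.41), each with an adjusted p of 1.00 in edgeR.

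Genes that build chondroitin, the 9 tested genes *sqv-1* to *sqv-8* and *mig-22*, had a median log2 fold change of -0.011, and none passed in edgeR. *sqv-1*, an enzyme gene of nucleotide sugar synthesis, was at 306, 251 and 320 CPM in *grh-1* OEx, against 191, 212 and 187 CPM in WT, without overlap. At a log2 fold change of 0.57 ± 0.15 (SE), its adjusted p was 0.292 by edgeR and 0.0116 by DESeq2. The 5 other tested *cpg* genes, with *cpg-3* the most abundant at 1128 ± 83.4 CPM in *grh-1* OEx and 1114 ± 120 CPM in WT (SD, n = 3 each), had a median of 0.019, and none passed in edgeR or DESeq2 or had an unadjusted p under 0.05.

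*perm-2* encodes an eggshell protein needed for a closed permeability barrier (WBGene00016636, chromosome IV from 1126791 to 1128848, plus strand, 5 exons). It was counted at 1016, 704 and 940 CPM in *grh-1* OEx, against 1267, 1086 and 1550 CPM in WT. Each *grh-1* OEx library was below each WT library, a pattern that 6.14% of all tested genes showed in this direction and 9.53% in either. The log2 fold change was -0.55 ± 0.20 (SE), or 0.681 of the WT level, with a 95% interval from -0.999 to -0.11. Its unadjusted p was 0.020 and its adjusted p 0.602 in edgeR, which is above the 0.05 set over all genes. In DESeq2 the unadjusted p was 0.00437 and the adjusted p 0.242. Leaving out *grh-1* OEx replicate 1 or 2 gave an adjusted p of 1.00 in edgeR, at log2 fold changes of -0.66 and -0.41.

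**Figure D2:**
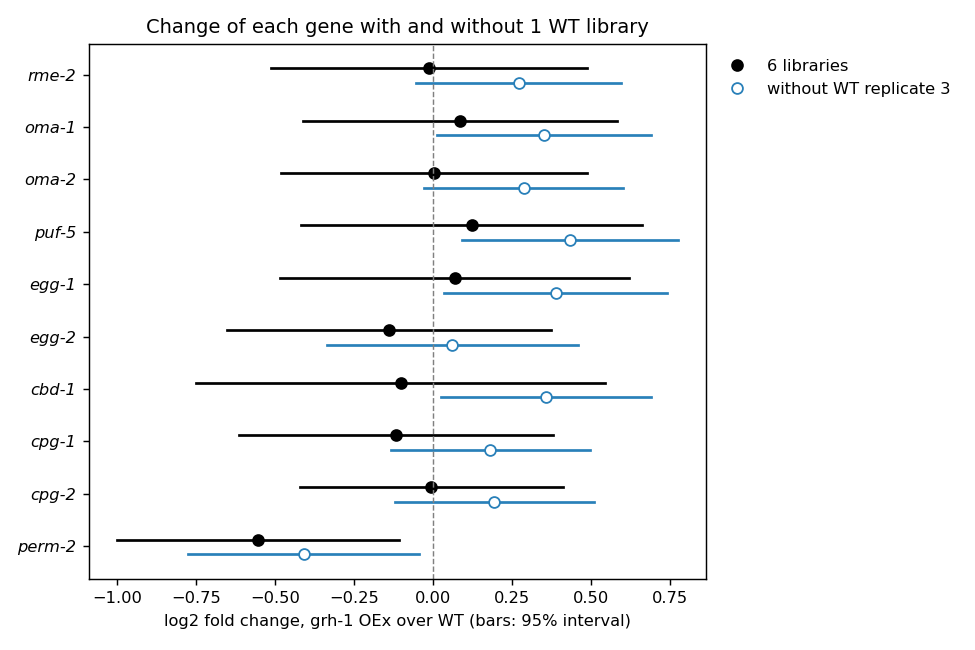
Log2 fold change of *grh-1* OEx over WT for each gene, with its 95% interval, from all 6 libraries (black, filled) and from the fit without WT replicate 3 (blue, open). With all libraries 9 of the intervals include 0, and the *perm-2* interval from -0.999 to -0.11 lies below it; without WT replicate 3 the *perm-2* estimate is -0.41 and the other 9 estimates are positive.

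*perm-2* shares 25 bases with *C44B12.6* on the other strand, which stood between 0.164 and 0.578 CPM. Upstream of *perm-2* lies *perm-4* on the minus strand, from 1121457 to 1125107, with 1683 bases between the 2 genes. *perm-4*, another gene of the permeability barrier, was counted at 1314, 969 and 1220 CPM in *grh-1* OEx, against 1347, 1372 and 1972 CPM in WT. Its groups did not overlap either, and at a log2 fold change of -0.42 ± 0.20 (SE) its adjusted p was 0.793 by edgeR and 0.753 by DESeq2. Without WT replicate 3 the log2 fold change of *perm-4* was -0.22 (edgeR adjusted p = 0.821). Over the 6 libraries, which share depth and scaling, log2 CPM of *perm-2* and *perm-4* had a Pearson r of 0.95. *perm-4* had the lowest p of the 11 other eggshell and egg-surface genes, none of which passed in either direction in edgeR or DESeq2 or had an unadjusted p under 0.05. The median of these 11 was 0.014, and they include *chs-1*, the chitin synthase gene of the shell, at 465 ± 45.4 CPM in *grh-1* OEx and 432 ± 87.8 CPM in WT, and *mbk-2*, a kinase gene of the oocyte-to-embryo transition, at 496 ± 37.1 CPM in *grh-1* OEx and 491 ± 88.7 CPM in WT (SD, n = 3 each).

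All 10 genes were highest in WT replicate 3, which was the highest library for 27.3% of all tested genes. Its ratio to the mean of the other 5 libraries ran from 1.33 for *cpg-2* to 1.83 for *cbd-1*, with a median of 1.47, against a median of 1.01 over all tested genes. The ratios depend on the scaling, for the 10 genes and for all tested genes alike. With library totals alone, without TMM factors, WT replicate 3 was the highest library for 5 of the 10 genes, beside 9.41% of all tested genes. Its ratios then ran from 1.09 to 1.49, with a median of 1.2, against a median of 0.821 over all tested genes. On either scale the ratio of each of the 10 genes was above the median of all tested genes. Some other germline lists and some lists of other tissues were also high in that library on the TMM scale, and others were not. The summed level of 20 other oocyte and embryo RNA regulators was 22300 CPM in WT replicate 3, against 14900 to 17200 CPM in the other libraries. That of 12 germ cell markers, such as *pgl-3* and *glp-1*, was 2890 CPM, against 1930 to 2420 CPM. That of 20 meiotic prophase genes was 1440 CPM, inside the range of 1320 to 1470 CPM of the other libraries. The yolk genes summed to 87600 CPM in WT replicate 3, against 37400 to 61000 CPM, and the body muscle markers to 2720 CPM, against 1840 to 2420 CPM in the other libraries. The intestine markers summed to 2600 CPM, against 1640 to 2100 CPM, and most of that sum was *asp-1*, at 1826 CPM in WT replicate 3. Of the other intestine markers, *act-5* and *ges-1* were also highest in that library, while *pept-1*, *ifb-2* and *elt-2* were highest in others.

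**Figure D3:**
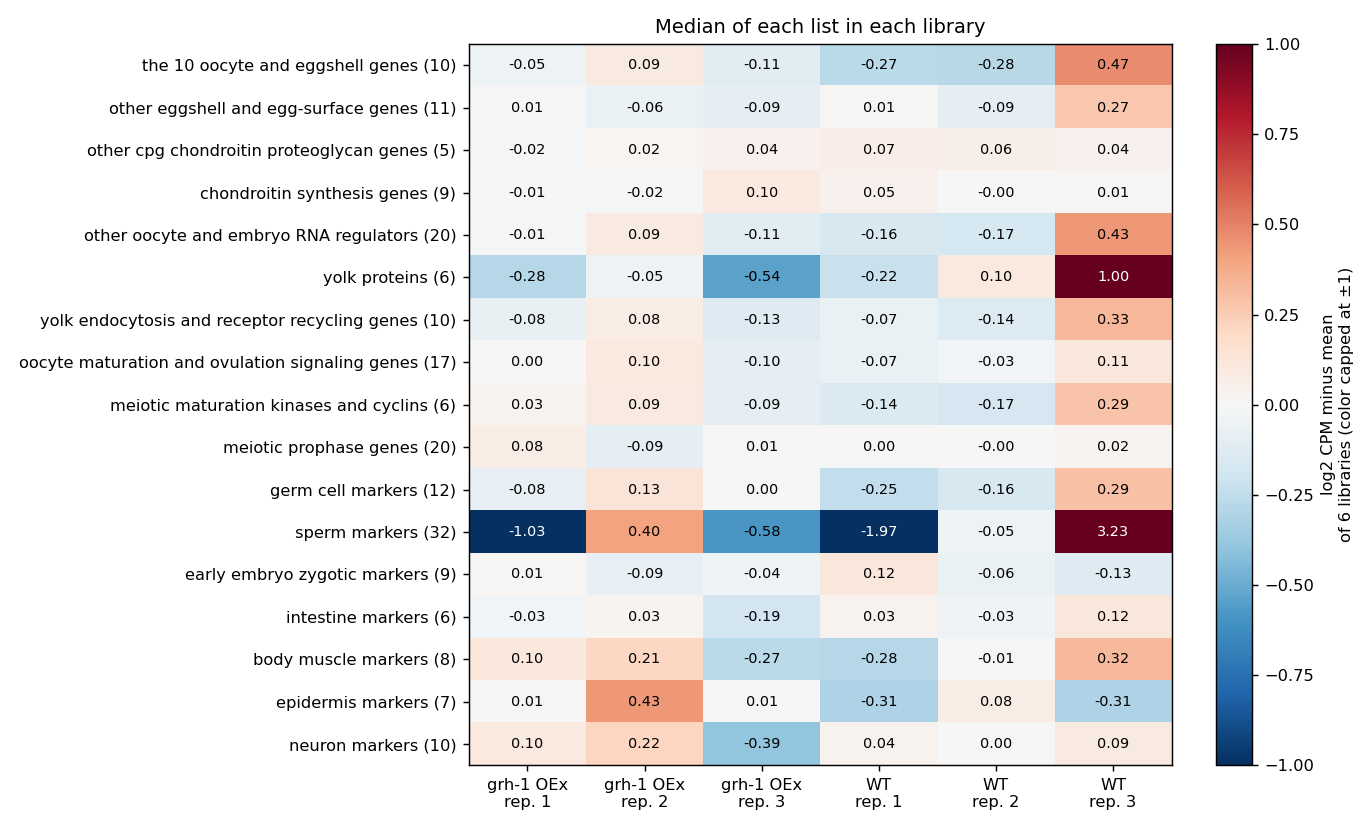
Median over the tested genes of each list (number in brackets) of log2 CPM minus the gene's own mean over the 6 libraries, for *grh-1* OEx (left) and WT (right); color is capped at ±1. WT replicate 3 has the highest median for the 10 oocyte and eggshell genes, at 0.47, and for sperm markers, at 3.23, while meiotic prophase genes stand at 0.02.

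Without WT replicate 3 the fold changes of most of the oocyte and eggshell genes were above 0. Their median log2 fold change was 0.28 in that fit, 9 of the 10 were positive, and none passed an adjusted p of 0.05, where 0.972% of all tested genes did. At an unadjusted p under 0.05, 4 of the 10 were higher, beside 4.76% of all tested genes in this direction, and *perm-2* was lower, beside 3.91%. The 4 were *puf-5* (log2 fold change 0.44), *egg-1* (0.39), *cbd-1* (0.36) and *oma-1* (0.35), with adjusted p from 0.402 to 0.544 in edgeR. For 8 of the 10 genes all 3 *grh-1* OEx libraries were above WT replicates 1 and 2, which held for 10.8% of all tested genes. Most of the 10 genes moved together over the libraries and were set against the same WT replicates, so that these counts are not independent observations. The median of the 10 genes with all libraries, at -0.0083, had no firm sign. With WT replicate 3 kept it was also above 0, at 0.023 in DESeq2, 0.031 in limma-voom and 0.085 with library totals. The medians over all tested genes in these fits were -0.00043, -0.0069 and 0.054, so that with library totals all genes were shifted upward. *perm-2* was below 0 with and without WT replicate 3, at -0.55 and -0.41.

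Relative to the other 9 genes in the same library, *perm-2* also stood lower in *grh-1* OEx. After each gene was centered on its mean, *perm-2* lay at -0.11, -0.71 and -0.053 log2 units from the mean of the other 9 in *grh-1* OEx, against 0.49, 0.33 and 0.062 in WT. The difference was -0.58, with p = 0.10 from a two-sided exact permutation test, the smallest p that 3 against 3 libraries allow. This comparison was run for each of the 10 genes after their values had been seen, and with Benjamini-Hochberg adjustment over them the p was 0.60. For the other 9 genes the groups overlapped and the differences ran from -0.13 for *egg-2* to 0.21 for *puf-5*.

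The levels of the genes moved together over the libraries, less so for *perm-2* and *egg-2*. Over the 6 libraries the Pearson r of log2 CPM had a median of 0.87 over the 36 pairs without *perm-2* (from 0.33 to 0.99) and of 0.28 over the 9 pairs with it. Without WT replicate 3, over 5 libraries, these medians were 0.71 and -0.76. The 9 pairs with *egg-2* had a median r of 0.56 over 6 libraries and -0.050 over 5. All pairs share libraries, depth and scaling, so that these are descriptions. By the same measure the genes outside the group most like its mean profile over 6 libraries were *ehs-1*, an endocytosis gene (r = 0.996), *trcs-2* (0.996), *moc-1* (0.994), *trpp-10* (0.993) and *B0207.5* (0.992), and 3.62% of all tested genes had an r over 0.9. *ehs-1* was at 80.5, 79.1 and 68.7 CPM in *grh-1* OEx, against 67.1, 64.8 and 106.7 CPM in WT. *B0207.5* was near the floor outside WT replicate 3, at 0.626, 0.714 and 0.376 CPM in *grh-1* OEx, against 0.338, 0.164 and 6.22 CPM in WT.

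Levels can be set beside each other only per length, as RPKM (TMM-scaled CPM per kilobase of the deposited gene length). By the mean of 6 libraries the order was *cpg-1* (2106), *cpg-2* (1961), *perm-2* (1523), *cbd-1* (498), *oma-2* (454), *puf-5* (445), *rme-2* (419), *egg-1* (311), *oma-1* (202) and *egg-2* (144 RPKM). The median of all tested genes was 13.2 RPKM, and the ranks of the 10 among all genes ran from 46 to 992. The shell genes *cpg-1*, *cpg-2* and *perm-2* stood apart from the rest, since the lowest *perm-2* library (980 RPKM) was above the highest *cbd-1* library (799.8 RPKM). For every other pair of neighbors in this order the ranges over the libraries overlapped. Within single libraries, *cbd-1* was above *oma-2* in 4 of 6 libraries and *oma-2* above *puf-5* in 4 of 6, whereas *rme-2* was above *egg-1*, *egg-1* above *oma-1* and *oma-1* above *egg-2* in all 6.

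**Figure D4:**
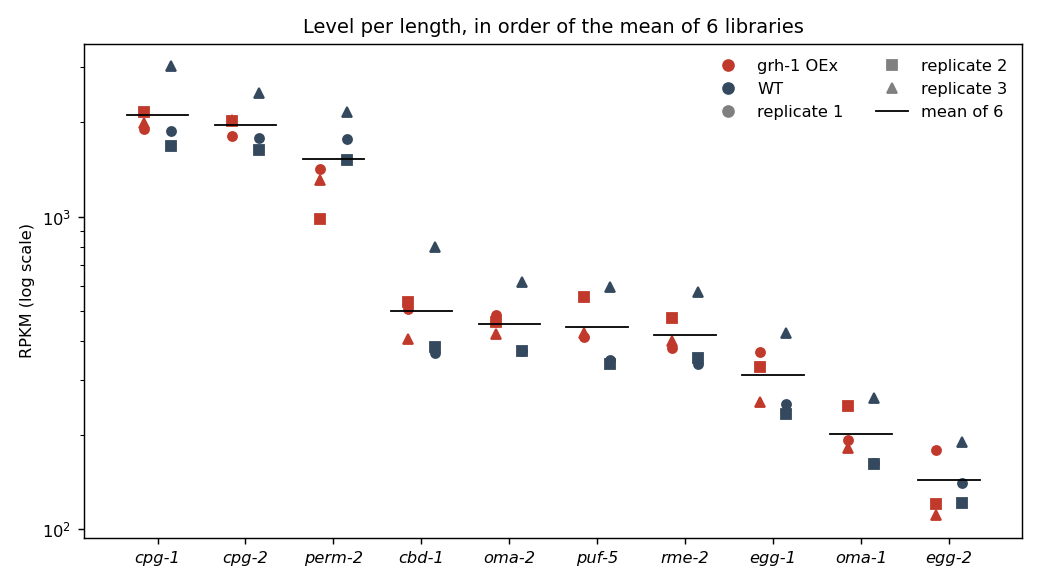
RPKM of each gene on a log axis in the 3 *grh-1* OEx (red, left of each position) and 3 WT libraries (dark, right), with the mean of 6 libraries as a line. The 3 genes at the left lie above 980 RPKM in every library, and the other 7 lie below 800 RPKM.

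The place of *cpg-1* depends on its length. The deposited length of 1255 bases is shorter than the 1889 bases that its exons cover in the Ensembl annotation of WBcel235, which lists 2 transcripts of the gene. With the longer length its mean was 1399 RPKM, below *cpg-2* and *perm-2*. For the other 9 genes the deposited length was between 0.969 and 1.01 of the exon length.

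Within the pairs of related genes, a ratio of RPKM in the same library removes what the library has more or less of both. *oma-1* stood at 0.400, 0.540 and 0.432 of *oma-2* in *grh-1* OEx, against 0.440, 0.434 and 0.425 in WT. The WT ratios lay close together, *grh-1* OEx replicate 1 was below them, replicate 2 above them and replicate 3 among them. *egg-1* stood at 2.05, 2.75 and 2.31 times *egg-2* in *grh-1* OEx, against 1.79, 1.93 and 2.24 times in WT, with overlap between the groups. *cpg-1* stood at 1.05, 1.07 and 0.978 times *cpg-2* in *grh-1* OEx, against 1.05, 1.03 and 1.22 times in WT, by the deposited length of *cpg-1*. With the exon lengths *cpg-1* was below *cpg-2* in all 6 libraries, at 0.698, 0.706 and 0.647 of it in *grh-1* OEx, against 0.695, 0.683 and 0.807 in WT. The differences of the log2 ratios between *grh-1* OEx and WT were 0.068, 0.25 and -0.087 for the *oma*, *egg* and *cpg* pairs, with p = 0.90, 0.20 and 0.60 from two-sided exact permutation tests (smallest possible p = 0.10). With Benjamini-Hochberg adjustment over the 3 exact tests the p were 0.90, 0.60 and 0.90.

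**Figure D5:**
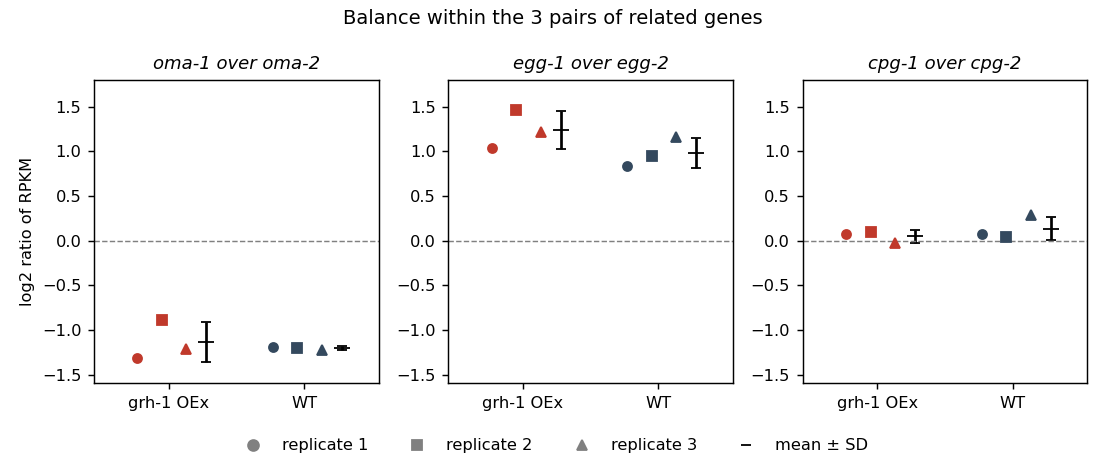
Log2 ratio of RPKM within each pair of related genes in the 3 *grh-1* OEx (red, left) and 3 WT libraries (dark, right), with mean and SD. *oma-1* is below *oma-2* and *egg-1* above *egg-2* in all 6 libraries, and the ratio of *cpg-1* to *cpg-2* lies between 0.978 and 1.22 by the deposited lengths plotted here, and between 0.647 and 0.807 by the exon lengths.

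Other features of the 10 genes were not used in their choice by name. None lies on the X chromosome, which holds 14.9% of all tested genes. Of the 10, 4 are on chromosome III and 4 on chromosome IV, and the shares of all tested genes on these chromosomes were not computed. Their median GC fraction was 0.466, against 0.412 over all tested genes, and their median length 1788 bases against 1260. Single lengths ran from 718 bases for *perm-2* to 4194 bases for *cbd-1*. The deposited annotation gives the term for chitin binding to *cbd-1*, *cpg-1* and *cpg-2* and to 47 genes in all, and the term for single fertilization to *egg-1* and *egg-2* and to 10 genes in all.

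Around these genes, lists that describe the rest of the gonad and the other tissues showed few differences. None of the 17 genes of oocyte maturation and ovulation signaling, such as *inx-8*, *inx-14* and *inx-22* of the sheath-oocyte gap junctions, passed in edgeR (median 0.0068). The same held for 6 meiotic maturation kinases and cyclins, such as *cdk-1* and *wee-1.3* (median -0.016), 20 meiotic prophase genes, such as *htp-3* and *syp-4* (median 0.011), and 12 germ cell markers (median -0.0045). Without WT replicate 3 these medians were 0.083, 0.20, -0.013 and 0.20 in the same order, with 10 of the 12 germ cell markers above 0 against 6 with all libraries. In these 4 lists none had an unadjusted p under 0.05 and none passed in DESeq2. Early embryo zygotic markers, of which 9 of 16 could be tested, summed to between 42.2 and 48.5 CPM in *grh-1* OEx and between 45 and 50.5 CPM in WT (median log2 fold change -0.072), and none passed in edgeR or DESeq2 or had an unadjusted p under 0.05.

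Over the 32 sperm markers that could be tested, *msp-78* and *ssp-10* among them, the median log2 fold change was -2.17 with all libraries and 0.39 without WT replicate 3. None passed in edgeR, DESeq2 or limma-voom with all libraries, 12 had an unadjusted p under 0.05 and 8 passed without WT replicate 1. Of the intestine markers, none of 6 passed in edgeR (median -0.049), and *asp-1*, an aspartyl protease gene, was at 1104, 1044 and 1085 CPM in *grh-1* OEx, against 1438, 1388 and 1826 CPM in WT (adjusted p = 0.44 in edgeR and 0.0498 in DESeq2). Of 8 body muscle (median -0.052, and 0.14 without WT replicate 3), 7 epidermis (median 0.26) and 10 neuron markers (median -0.042) none passed in edgeR or DESeq2 or had an unadjusted p under 0.05.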

How the data were processed

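Poly(A) RNA of 3 *grh-1* OEx and 3 WT populations was sequenced from TruSeq v2 libraries, a kit without strand marking. Raw counts per gene were deposited; the authors had made them from adapter-trimmed reads with STAR (alignment to WBcel235) and featureCounts in Subread, of versions not given in the sources used here. Further deposited units, a signal of size-factor-normalized counts and FPKM, served as checks, and the deposited GC fraction and length of each gene were used as given. The deposited p-values, adjusted p-values and log2 ratios of the authors' own comparison were not used.

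Counts were tested with edgeR 4.0.16 in R 4.3.3 (glmQLFit, glmQLFTest, TMM, filterByExpr, min.count 10, min.total.count 15), two-sided, with Benjamini-Hochberg adjustment over all 13736 tested genes. Every adjusted p is from this test unless another tool is named. Standard errors are the log2 fold change over the root of F, and intervals are 95% t intervals. Log2 CPM for correlations used a prior count of 2. The biological coefficient of variation was 0.21. Exact permutation tests used scipy 1.17.1. The steps were tested on simulated counts, and no library was a copy of another (chi-square per degree of freedom of 17.7 or more within groups). The samples were grouped by genotype. The study calls them independent biological samples. The p-values set the difference between the groups against the spread between these libraries, and hold no spread between *grh-1* OEx lines.

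Alternatives were DESeq2 1.42.0, limma-voom 3.58.1, other scaling factors (RLE, upper quartile), all genes unfiltered, a floor of 10 counts in each library, a block on replicate number, and leaving out libraries singly. Library totals without TMM factors and exon lengths of the Ensembl annotation, for levels and pair ratios, were added after the data had been seen. The 10 genes and the 16 lists of related genes were chosen with earlier results of these data known. Genes named were the 10, up to 4 of each list with the smallest unadjusted p, and the 5 genes most like the mean profile. Named after their values had been seen were *grh-1*, the neighbors of *oma-1* and the genes that overlap *egg-1* and *perm-2*. The same holds for further genes of the lists (*puf-3*, *puf-6*, *puf-11*, *vit-6*, *cpg-3*, *chs-1*, *mbk-2*). No sequence is shown.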

Additional observations from a re-analysis of the deposited data

How the results depend on the processing

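None of the 10 genes passed the adjusted threshold in any of the 14 alternatives, and *perm-2* had a log2 fold change between -0.66 and -0.41 in all of them. For the other 9 genes, whose estimates lie near 0, signs turned. For *rme-2* the log2 fold change was 0.019 in DESeq2, 0.036 in limma-voom, 0.013 with RLE factors, 0.043 with no filter, 0.027 with the replicate number as a block and 0.085 with library totals. For *cpg-2* these values were 0.027, 0.025, 0.022, 0.050, 0.017 and 0.084, and *cbd-1* was at 0.014 with library totals. The median over all tested genes was itself at 0.054 with library totals. Leaving out each library in turn gave ranges from -0.11 to 0.27 for *rme-2*, -0.058 to 0.35 for *oma-1*, -0.066 to 0.29 for *oma-2*, -0.023 to 0.44 for *puf-5*, -0.048 to 0.39 for *egg-1*, -0.38 to 0.061 for *egg-2*, -0.24 to 0.36 for *cbd-1*, -0.22 to 0.18 for *cpg-1* and -0.064 to 0.20 for *cpg-2*. Apart from the shift without WT replicate 3, the cause of these turns was not tested. The difference in the log2 ratio of *oma-1* to *oma-2* ran from -0.058 to 0.16.

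Among the lists, DESeq2 called 1 chondroitin synthesis gene, 1 yolk gene and 1 intestine marker, and 1 yolk gene passed with upper-quartile factors, with at least 10 counts in every library and with library totals, where edgeR with all libraries called 0. With a library left out, 0 to 2 yolk genes and 0 to 8 sperm markers passed. Medians moved by more than the spread between replicates for the other *cpg* genes (0.071 with no filter, 0.091 with library totals, -0.058 to 0.069 with a library left out) and for early embryo markers (-0.19 in DESeq2, -0.044 to 0.087). The DESeq2 value of -0.19 was not taken over the same early embryo markers as the edgeR median. Over the 9 markers tested in edgeR the DESeq2 median was -0.044, against -0.072 in edgeR. With a library left out, medians ran from -0.041 to 0.065 for chondroitin synthesis and from -0.15 to 0.10 for yolk endocytosis. In the same fits they ran from -0.068 to 0.20 for meiotic maturation kinases and from -2.71 to 0.39 for sperm markers. The level of *cpg-1* was 1399 RPKM with the exon length. The causes were not tested.

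The correlation of same-numbered libraries' deviations from their group means was 0.23, -0.0090 and -0.12 for replicates 1 to 3. For libraries of different numbers it ran from -0.37 to 0.33. With 3 libraries per group this check cannot decide whether the replicate numbers pair the samples. With the replicate number as a block, 52 genes passed, against 61 without it, and the median of the 10 genes was 0.022. The 10 genes had standard errors from 0.19 to 0.29 on the log2 scale with 3 libraries per group.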
